A study of Homo sapiens with 4 samples.

Results

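The human ANKRD mRNAs were followed here through an immunoprecipitation of the replication protein ORC1, and they were taken as every protein-coding gene whose symbol in GENCODE release 44 is ANKRD with a number and at most 1 letter. Of the 63677 genes in the count table, 54 met this rule, and 37 of them had enough reads to be tested. The family was picked because ANKRD18A stood among the highest ratios of immunoprecipitate to Input. The ratios of the family in these same 4 libraries are therefore given as a description, with no test on its members.

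Nuclei were taken from HCT116, a colorectal carcinoma line of human origin, 48 h after transfection of a pcDNA3.1 plasmid encoding ORC1 with a 3xFLAG tag. ORC1 is a subunit of the origin recognition complex, which marks the places where DNA replication can start, and the experiment asks which nuclear RNAs come down with it. Without crosslinking, nuclear extracts were precipitated with the anti-FLAG antibody M2 (ORC1-FLAG IP, 2 libraries), and RNA of the extracts themselves was sequenced as Input (2 libraries). All 4 libraries are from transfected cells of this 1 line, IP and Input of the same number belong to the same RIP replicate, and precipitations with a control antibody or from untransfected cells were not analysed here. Values below are library-size-normalised counts scaled by TMM (scaled CPM), a correction for libraries whose total is dominated by different RNAs.

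The ankyrin repeat is a short helical motif that stacks in tandem into a curved surface used to bind other proteins. ANKRD is a name for genes that encode such repeats and not a single pathway, so its members range from chromatin co-regulators and centriole proteins to endosomal adaptors, phosphatase subunits and stress proteins of muscle. Several ANKRD genes are recent duplicates of each other, and some are close relatives of the POTE genes.

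Depth and identity of the libraries bear on every value. Totals were between 9213877 and 27483148 counts, with both IP libraries deeper than both Inputs. ORC1, the transfected gene, had 1108 and 18551 scaled CPM in the IP and 333 and 5063 in the Input. Replicate 2 thus had 16.7 (IP) and 15.2 (Input) times the ORC1 scaled CPM of replicate 1. The transfected cDNA was codon-optimized, so how far these counts reflect its RNA or endogenous ORC1 RNA cannot be told. The part of ORC1 in the replicate differences given below was not tested. The epithelial markers EPCAM, CDH1, KRT8, KRT18 and KRT19 were all present, with at least 46.8 scaled CPM in every library, and none of the 5 was called. Of 10 markers of leukocytes, endothelium, fibroblasts and muscle, 8 were too low to be tested, and MYH6, a myosin of heart muscle, was at 0. COL1A1, a collagen of fibroblasts, had 7.90 to 26.7 scaled CPM and was called enriched.

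Most ANKRD mRNAs were measurable in nuclei of HCT116 cells. ANKRD7, ANKRD30A, ANKRD30B, ANKRD34A, ANKRD34B, ANKRD34C, ANKRD55, ANKRD60 and ANKRD66, 9 genes in all, had no count in any library, which at this depth allows up to 3 counts in each. ANKRD2, ANKRD18B, ANKRD23, ANKRD33, ANKRD35, ANKRD53, ANKRD63 and ANKRD65 had at least 1 count but at most 10 in any library, and these 8 were not tested either. Among the 37 tested, 30 had at least 1 scaled CPM in every library. ANKRD62 was the 1 gene that passed the filter on low counts through its IP libraries alone, with both Inputs under the cutoff. ANKRD1, ANKRD31 and ANKRD45 each had 1 Input under it, so they too would not have passed on their Inputs alone.

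Levels in the Input, compared between genes per kilobase of exons, spanned a wide range. The highest mean Input levels were those of ANKRD40 (22.9 scaled CPM per kilobase), ANKRD17 (20.7), ANKRD10 (17.3) and ANKRD27 (12.2). The order of ANKRD40, ANKRD17 and ANKRD10 was not settled by the replicates, since the Input libraries gave 25.4 and 20.4 for ANKRD40, 22.5 and 19.0 for ANKRD17, and 12.7 and 21.9 for ANKRD10. The median of the family was 1.21, and ANKRD18A lay under it at 0.553 and 0.290. In the IP, ANKRD17 was highest in both libraries (53.2 and 53.9 scaled CPM per kilobase), while ANKRD11 (32.6 and 44.5) and ANKRD40 (44.5 and 25.6) changed places between them. ANKRD18A had a mean of 2.75. These orders hold for the union of exons, which is 19527 bases for ANKRD11 against a canonical transcript of 9301. For ANKRD10 these lengths are 4563 and 2495. Per base of canonical transcript, ANKRD11 would lead both IP libraries and ANKRD10 the mean Input. As these are bulk samples, fewer cells with an RNA and less of it per cell cannot be told apart.

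**Figure D1:**
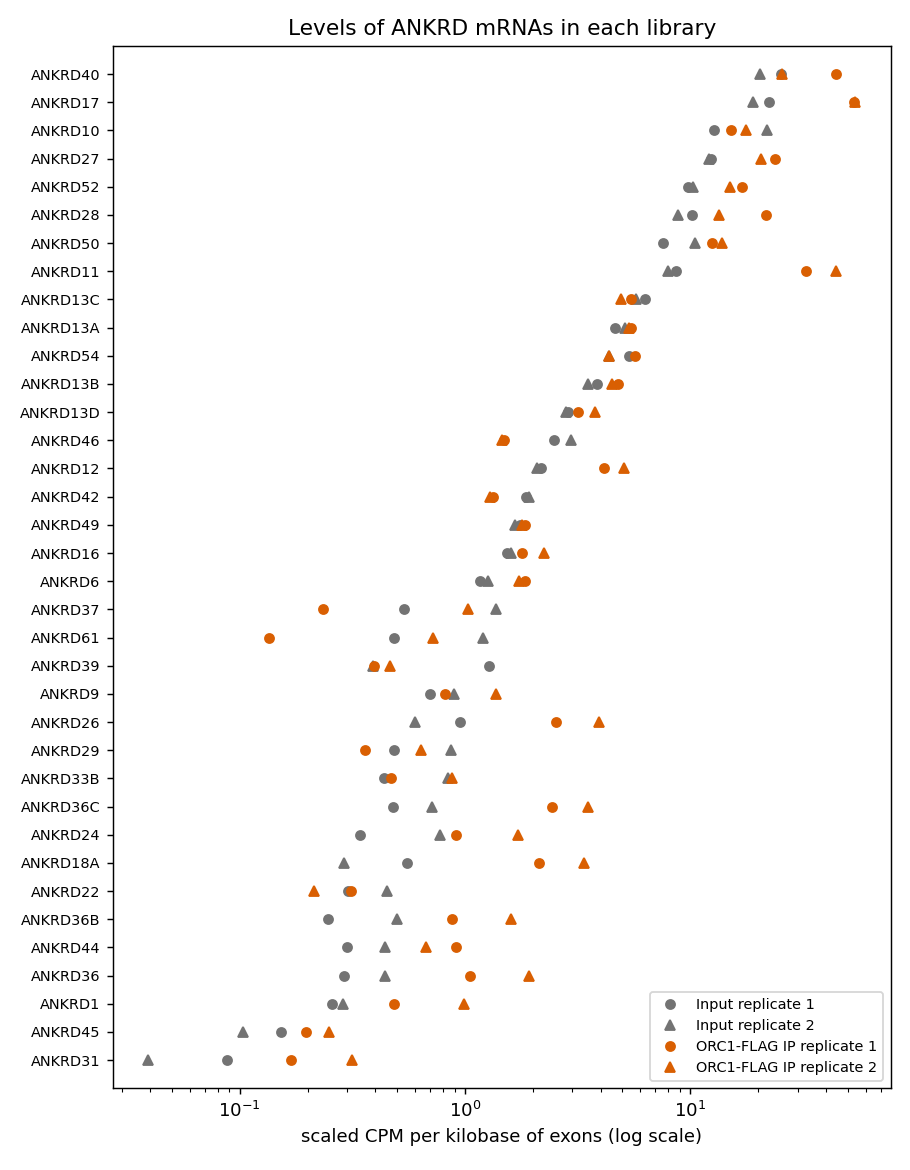
Scaled CPM per kilobase of exons (log axis) of the tested ANKRD genes in each library, with Input in grey, ORC1-FLAG IP in orange, circles for replicate 1 and triangles for replicate 2, ordered by mean Input level; ANKRD62, at 0 in 1 Input, is not drawn. ANKRD40, ANKRD17 and ANKRD10 lead the Inputs, and ANKRD17 leads both IP libraries, with ANKRD40 next in replicate 1 and ANKRD11 next in replicate 2.

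Summed over its members, the family took a larger share of the reads in the IP than in the Input. All 54 genes together held 0.201% and 0.240% of the counts of the IP libraries and 0.151% and 0.159% of those of the Inputs (95% Wilson intervals 0.200 to 0.203%, 0.238 to 0.242%, 0.149 to 0.153% and 0.156 to 0.161%, which cover counting error only). The IP shares lay above both Input shares. In these shares of raw counts, not scaled by TMM, the separation rested on a pair of genes, ANKRD11 and ANKRD17. They held 48.0% and 54.9% of the family's counts in the IP (47.6 to 48.5% and 54.4 to 55.3%). In the Input they held 34.6% and 30.7% (34.0 to 35.2% and 29.9 to 31.4%). Without this pair, the summed raw shares of the other members overlapped between IP and Input libraries. In scaled CPM they would not overlap, with both IP sums above both Input sums. The overlap therefore holds for unscaled shares only.

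Of the 37 genes tested, 8 were called enriched in the IP (edgeR, Benjamini-Hochberg adjusted p below 0.05 over all genes and a log2 fold change above 1), and none was called depleted. Over all 14645 genes tested, 10.5% were called enriched and 8.3% depleted. Since the family was chosen on this contrast, nothing is read from its count. The 8 genes were ANKRD18A, ANKRD36C, ANKRD11, ANKRD26, ANKRD36, ANKRD36B, ANKRD17 and ANKRD12. At an unadjusted p below 0.05, 1 member lay below 0 and none below -1 in edgeR, with the same 2 counts in DESeq2 and in limma voom. The share of all genes at that threshold was not counted, so nothing is read from these counts either. The median log2 fold change was 0.57 (0.51 and 0.46 for the ratios of replicates 1 and 2), against 0.01 over all genes tested and 0.08 over protein-coding genes. Both IP libraries lay above both Inputs in 25 members (33.2% of all genes), below both in 3 (31.9% of all genes), and overlapped them in 9. A log2 ratio above 1 in both replicates was found for 8 members (8.95% of all genes), and one below -1 in both for none (6.96% of all genes). With the replicate number as a block, 13 members were called (13.4% of all genes), the additional ones being ANKRD1, ANKRD24, ANKRD31, ANKRD44 and ANKRD62.

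**Figure D2:**
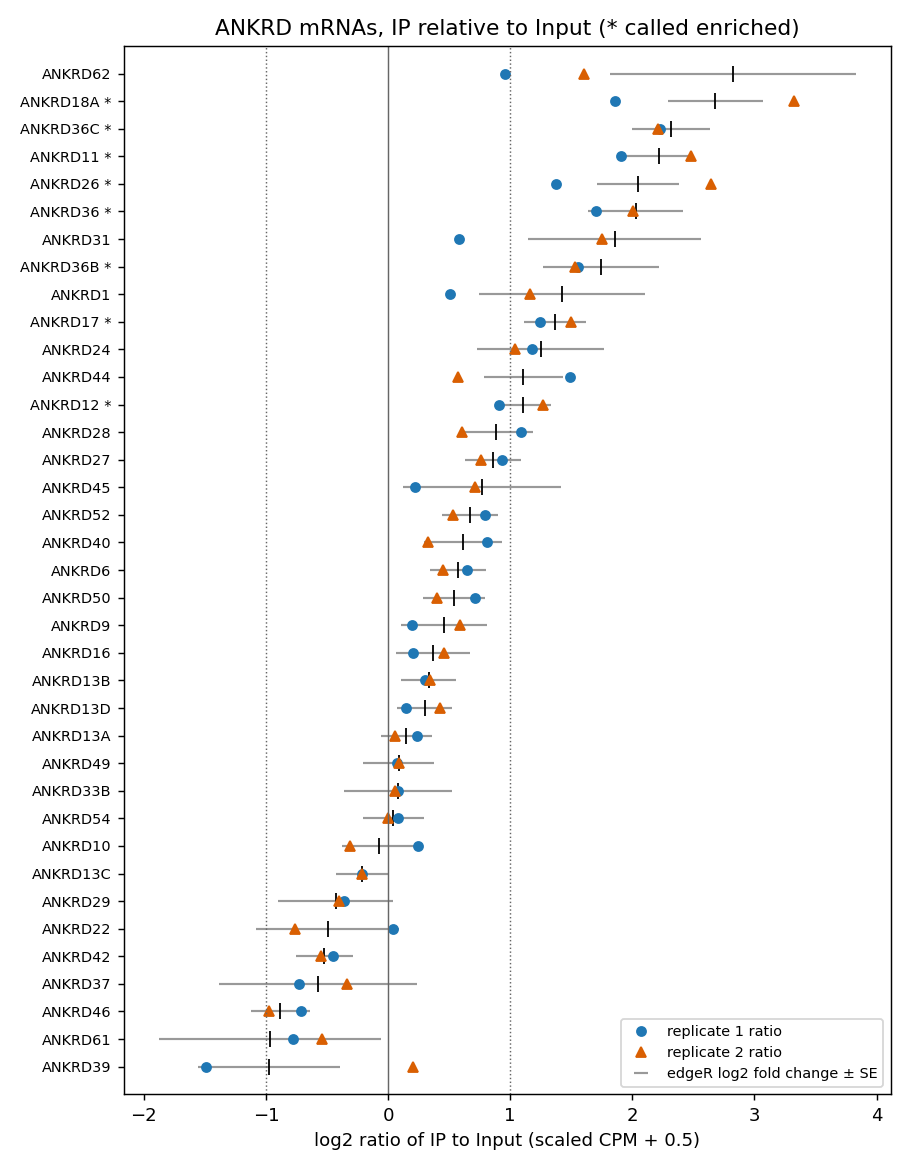
Log2 ratio of IP to Input for the 37 tested ANKRD genes, with the ratio of replicate 1 (circles) and replicate 2 (triangles, both with a pseudocount of 0.5 scaled CPM) and the edgeR log2 fold change (tick) with its SE (bar). Asterisks mark the 8 genes called enriched, dotted lines mark 1 and -1, and the values run from -0.97 for ANKRD39 to 2.82 for ANKRD62.

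ANKRD18A, the gene for which the family was chosen, encodes a protein with ankyrin repeats and coiled coils about which little is known. It lies on the minus strand of chromosome 9 (GRCh38, chr9:38540567-38620596, ENSG00000180071). It had 434 and 575 counts in the IP and 94 and 33 in the Input, which is 20.8 and 32.7 scaled CPM against 5.38 and 2.82. The groups did not overlap, and replicate 2 had both the higher IP and the lower Input value, with a log2 ratio of 3.32 against 1.86 in replicate 1. EdgeR put the log2 fold change at 2.68 ± 0.39 (SE derived from the F statistic, 2 IP against 2 Input libraries). It ranked 14 from the top among the 14645 genes tested. Its near copy ANKRD18B, on the plus strand of the same chromosome, had 1 or 2 counts in each library.

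The likeness of these duplicates is shown for a stretch of 60 bases at or near each coding start. The first 60 coding bases of ANKRD18A and ANKRD18B are shown with the 3 bases of ANKRD18B that differ from ANKRD18A in capitals.
ANKRD18A: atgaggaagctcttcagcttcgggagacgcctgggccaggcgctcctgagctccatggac
ANKRD18B: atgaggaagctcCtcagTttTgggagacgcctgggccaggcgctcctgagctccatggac
For ANKRD36, ANKRD36B and ANKRD36C, the aligned stretch (coding bases 37 to 96 of ANKRD36 and ANKRD36C, and 1 to 60 of ANKRD36B) is shown with differences from ANKRD36 in capitals, 3 in ANKRD36B and 4 in ANKRD36C.
ANKRD36: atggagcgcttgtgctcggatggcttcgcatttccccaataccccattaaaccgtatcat
ANKRD36B: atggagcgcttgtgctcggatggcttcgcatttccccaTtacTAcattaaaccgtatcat
ANKRD36C: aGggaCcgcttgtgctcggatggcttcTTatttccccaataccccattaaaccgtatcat
Of the 31-base words of the ANKRD18A transcript, 37.5% also occurred in ANKRD18B, and 55.2% occurred in no other gene's transcripts. For ANKRD36C, ANKRD36 and ANKRD36B the unique share was 44.1%, 37.6% and 21.4%, and 68.1% of the words of ANKRD36B recurred in ANKRD36. How reads with several alignments were counted is not given in the sources used here, so the split of reads between these copies is uncertain.

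The ANKRD36 genes, which also encode ankyrin repeats followed by coiled coils, lie on chromosome 2 and were called together. ANKRD36C (chr2:95836919-95991831) had 24.4 and 35.2 scaled CPM in the IP and 4.81 and 7.19 in the Input, with a log2 fold change of 2.32 ± 0.32. ANKRD36 (chr2:97113153-97264521) had 11.2 and 20.4 in the IP and 3.09 and 4.71 in the Input, with 2.03 ± 0.39. ANKRD36B (chr2:97492663-97589877) had 5.67 and 10.4 in the IP and 1.60 and 3.25 in the Input, with 1.74 ± 0.47. In each of the 3 both IP values were above both Inputs, and ANKRD36B lost its call without IP replicate 2, where its log2 fold change was 1.29.

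ANKRD26 encodes a protein of the distal appendages of the mother centriole that activates the PIDDosome when centrosomes are in excess, and the gene is known from an inherited form of low platelet count. It had 34.4 and 53.5 scaled CPM in the IP and 12.9 and 8.13 in the Input, with a log2 fold change of 2.05 ± 0.34. ANKRD62, a little studied relative on chromosome 18, had the highest fitted value of the family, 2.82 ± 1.01, on 19 and 18 counts in the IP and 4 and 0 in the Input. The groups of ANKRD62 did not overlap, but its fold depends on the prior count and it was not called. It was called without Input replicate 1, where the only Input left was at 0, and its fitted value was 1.90 without Input replicate 2. Of 7 distal appendage and PIDDosome genes that work with ANKRD26, CEP89 (1.39, adjusted p = 0.0134) and CEP164 (1.33, adjusted p = 0.0140) were enriched and CRADD (-1.14, adjusted p = 0.0414) was depleted in the edgeR test.

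ANKRD11 and ANKRD12 encode large nuclear co-regulators that bind nuclear receptor coactivators and histone deacetylases, and loss of ANKRD11 underlies KBG syndrome. ANKRD11 (chr16:89267630-89490561, minus strand) had 636 and 869 scaled CPM in the IP against 169 and 155 in the Input. Its IP values were far above its Inputs in both replicates, and the log2 fold change was 2.22 ± 0.28. ANKRD12 (chr18:9136228-9285985) had 50.5 and 62.0 scaled CPM in the IP and 26.7 and 25.5 in the Input, with 1.11 ± 0.23. The 2 groups of ANKRD12 were also apart, but its call was lost without Input replicate 2, where the log2 fold change was 0.93. Among 5 co-regulator partners, NCOA3, a nuclear receptor coactivator, was enriched (1.09, adjusted p = 0.0272, edgeR) and the other 4 were not called.

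ANKRD17 encodes a large protein with ankyrin repeats and an RNA-binding KH domain, linked to the cell cycle and to Hippo signalling. It lies on the minus strand of chromosome 4 (chr4:73073376-73258798), and it had 640 and 649 scaled CPM in the IP against 270 and 229 in the Input. The IP libraries were within a few percent of each other and above both Inputs, and the log2 fold change was 1.37 ± 0.25. None of 4 Hippo genes (YAP1, WWTR1, ANKHD1, TEAD1) was called in edgeR. TEAD1, a DNA-binding partner of YAP, had -1.14 (adjusted p = 0.0621), and with the replicate block it was depleted (-1.20, adjusted p = 3.9e-05). ANKHD1, the closest relative of ANKRD17, had 0.92.

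The genes ANKRD28, ANKRD44 and ANKRD52, encode ankyrin repeat subunits of protein phosphatase 6. Their log2 fold changes were 0.89 ± 0.30, 1.11 ± 0.33 and 0.67 ± 0.23, and none was called. ANKRD28 had 245 and 152 scaled CPM in the IP against 115 and 99.7 in the Input, and ANKRD44 11.7 and 8.65 against 3.84 and 5.65. In all 3 both IP libraries were above both Inputs, and for ANKRD28 and ANKRD44 the ratio of replicate 1 was the higher one, the opposite of ANKRD18A and ANKRD26. The other subunits moved apart in the edgeR test: PPP6R3, a regulatory subunit, was enriched (1.27, adjusted p = 0.0186), the catalytic subunit PPP6C was depleted (-1.96, adjusted p = 0.0105), and PPP6R1 and PPP6R2 were not called.

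None of the members known from endosomes and internalised receptors was called. ANKRD27, which binds RAB GTPases and the SNARE VAMP7, had 3875 and 2843 counts in the IP and 1693 and 1110 in the Input, and in scaled CPM both IP libraries were above both Inputs, with 0.86 ± 0.23. ANKRD50, which serves recycling from endosomes, had 0.54 ± 0.25. The ubiquitin-binding ANKRD13A, ANKRD13B and ANKRD13D, which act on internalised receptors, had 0.15, 0.33 and 0.30, and their relative ANKRD13C had -0.21 with both IP values below both Inputs. Of 7 endosome partners of ANKRD27, 6 were tested, and none of these was enriched. RAB32 was at 0 in every library and was not tested. RAB21 (-1.27, adjusted p = 0.0398), RAB38 (-1.25, adjusted p = 0.0301), VAMP7 (-1.79, adjusted p = 0.0171) and VPS29 (-1.51, adjusted p = 0.0166) were depleted in the edgeR test (8.3% of all genes). ANKRD27 itself was not depleted.

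The muscle members were scarce, as were muscle markers. ANKRD1, a stress-responsive protein of the heart muscle and a known target of YAP, had 18 and 31 counts in the IP and 8 and 6 in the Input, with 1.42 ± 0.68 and no call. ANKRD2 had 10 and 8 counts in the IP and 3 in each Input, and ANKRD23 had at most 2. ANKRD31, which is needed for meiotic recombination, had 23 and 36 counts in the IP and 10 and 3 in the Input (1.86 ± 0.71). ANKRD24, known from the stereocilia of hair cells, had 86 and 136 counts against 27 and 41 (1.25 ± 0.52). For ANKRD1, ANKRD24 and ANKRD31 the groups did not overlap, but their SE was large in the reported fit, which leaves out the pairing of libraries. The log2 ratios of ANKRD24 were 1.18 and 1.04 in replicates 1 and 2. ANKRD1 and ANKRD31 were called with the block alone, and ANKRD24 also without a count filter, without IP replicate 1 and without Input replicate 2.

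The lowest log2 fold changes were those of ANKRD39, ANKRD61, ANKRD46, ANKRD37 and ANKRD42. ANKRD46, a small membrane protein, had 8.64 and 8.53 scaled CPM in the IP and 14.5 and 17.2 in the Input, with -0.88 ± 0.24. ANKRD42 had 9.03 and 8.76 in the IP and 12.5 and 13.0 in the Input, with -0.52 ± 0.24. In both genes the IP libraries were below both Inputs, in close replicates, and neither was called. ANKRD39 had 2.06 and 2.45 scaled CPM in the IP and 6.70 and 2.05 in the Input, with -0.97 ± 0.58. Its groups overlapped and the replicates went opposite ways (log2 ratios of -1.49 and 0.21). Exons of ANKRD23 cover 57.7% of its exonic bases on the same strand. ANKRD61 (4 and 18 counts in the IP, 12 and 20 in the Input, -0.97 ± 0.91) and ANKRD37 (11 and 41 against 21 and 36, -0.57 ± 0.81) also overlapped between groups. ANKRD37 is induced by hypoxia, and 40.3% of its exonic bases lie opposite exons of UFSP2. The strand setting of the counting is not given in the sources used here, so reads of ANKRD37 and UFSP2 may not be told apart.

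The remaining members had log2 fold changes between -0.50 and 0.77, and none was called. These were ANKRD45 (0.77), ANKRD40 (0.62), ANKRD6 (0.57), which acts in Wnt signalling, ANKRD9 (0.46), a substrate receptor of a cullin ubiquitin ligase, ANKRD16 (0.37), a cofactor of alanyl-tRNA synthetase, ANKRD49 (0.09), ANKRD33B (0.08), ANKRD54 (0.04), ANKRD10 (-0.08), ANKRD29 (-0.43) and ANKRD22 (-0.50). ANKRD54 and ANKRD33B differed between IP and Input by far less than between replicates: ANKRD33B had 4.71 and 8.82 scaled CPM in the IP and 4.41 and 8.47 in the Input. ANKRD40 led the mean Input per kilobase of exons. It had 215 and 124 scaled CPM in the IP and 123 and 98.5 in the Input, and the difference between its IP libraries was larger than that between the group means.

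Coding length ordered the family more closely than the other 5 properties examined. The 18 members with a coding sequence longer than the family median of 1815 bases had a median log2 fold change of 1.31 and included all 8 called genes, and each of them lay above 0. The other 19 had a median of 0.04, with 10 above 0 and none called. Spearman's rho of log2 fold change with coding length was 0.76 over the 37 genes, 0.83 and 0.74 with the ratios of replicates 1 and 2, and 0.84 over the 30 genes with at least 1 scaled CPM in every library. With the length of the canonical transcript rho was 0.57, with its noncoding part -0.04, with its GC content -0.22 and with the Input level per kilobase -0.30. These points share the same 4 libraries and, for the duplicates, much of their sequence. The Input level also enters the fold change, so its rho carries shared noise. Over all 12542 protein-coding genes tested, rho was 0.59 for coding length, 0.26 for transcript length, -0.08 for its noncoding part, 0.07 for GC content and 0.01 for the Input level. Split at the same 1815 bases, 25.7% of the longer and 4.05% of the other protein-coding genes were enriched, so the split by coding length is not particular to ANKRD genes. The partner genes called above also differed in coding length. Those depleted had from 546 (VPS29) to 915 bases (PPP6C), and those enriched from 2349 (CEP89) to 4380 (CEP164). The part of coding length in these calls was not tested.

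**Figure D3:**
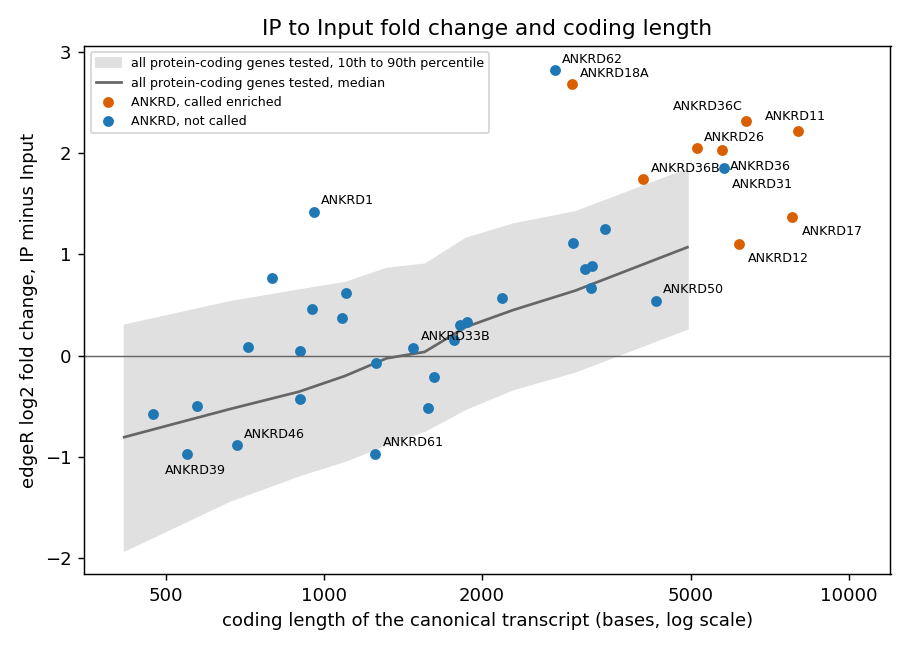
EdgeR log2 fold change of IP over Input against coding length (bases, log axis) for the 37 tested ANKRD genes, orange where called enriched and blue where not; the grey line and band are the median and the 10th to 90th percentile of all protein-coding genes tested in 10 bins of coding length, placed at each bin's median. Above the 90th percentile of their own bin are 9 members (ANKRD1, ANKRD11, ANKRD18A, ANKRD26, ANKRD31, ANKRD36, ANKRD36C, ANKRD45 and ANKRD62), below the 10th percentile is ANKRD61, and the other 27 are within. Among the 9, ANKRD1, ANKRD31, ANKRD45 and ANKRD62 would not have passed the filter on low counts on their Inputs alone.

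Single genes show how coding and transcript length differ. ANKRD33B has a canonical transcript of 9586 bases with 1482 coding and a log2 fold change of 0.08. ANKRD50, with 8798 bases of which 4287 are coding, had 0.54, under the median of the 18 longer members. ANKRD11 has 9301 bases with 7989 coding and 2.22. ANKRD18A reached 2.68 with only 2976 coding bases, where the median of protein-coding genes in the bin from 2595 to 3612 bases was 0.64 and the 90th percentile 1.42.

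The study examined tandem GAA repeats in RNAs found with ORC1. It found them by a motif search on whole transcripts and concluded that ORC1 does not bind RNA through them. By a different measure, the ANKRD transcripts were searched here for the exact word GAAGAAGAA on the transcript strand. It was present in the canonical transcript of 10 of the 37 tested members (27.0%), against 14.8% of all protein-coding genes tested. Among members it was found in 4 of the 8 called enriched and in 6 of the other 29. Transcript length differs with it: above 5000 bases 5 of 15 members held it (25.2% of all genes of that length), from 2500 to 5000 bases 5 of 14 (13.5%), and up to 2500 bases 0 of 8 (7.58%). The reverse complement TTCTTCTTC was present in 13.5% of members and 5.02% of all genes. The runs in coding sequence of 4 called genes are shown first, and those of 2 genes not called after them for contrast, each with 21 bases on either side and the run in capitals.
ANKRD18A: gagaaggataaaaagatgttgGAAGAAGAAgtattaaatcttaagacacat
ANKRD26, first run: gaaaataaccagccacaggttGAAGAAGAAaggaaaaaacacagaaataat
ANKRD26, second run: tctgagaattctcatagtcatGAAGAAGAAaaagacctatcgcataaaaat
ANKRD11, first run: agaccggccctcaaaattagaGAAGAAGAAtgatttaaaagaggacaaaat
ANKRD11, second run: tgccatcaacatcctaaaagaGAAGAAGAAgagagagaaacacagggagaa
ANKRD17: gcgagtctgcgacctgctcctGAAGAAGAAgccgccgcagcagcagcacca
ANKRD40: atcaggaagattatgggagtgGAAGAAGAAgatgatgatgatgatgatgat
ANKRD45: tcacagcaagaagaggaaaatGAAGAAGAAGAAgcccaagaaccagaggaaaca
The run of ANKRD18A is in exon 13 of 16 (chr9:38577993-38578001), 80.4% into the coding sequence. Those of ANKRD26 are in exons 17 and 24 of 34, both of ANKRD11 in exon 9 of 13 and that of ANKRD17 in exon 1 of 34. The runs of ANKRD18A, ANKRD26, ANKRD40 and ANKRD45 start on a codon boundary and are read as GAA codons, while those of ANKRD11 and ANKRD17 start on the third base of a codon and are read as AAG. ANKRD45 has the longest run of the tested members, 4 units, and was not called, and ANKRD36, ANKRD36B, ANKRD36C and ANKRD12 were called without the motif. A match describes these letters and not a bound site.

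Other genes with ankyrin repeats were counted in the same test. Of 121 such genes outside the ANKRD symbols, 114 were tested, 22 were enriched and 3 depleted (10.5% and 8.3% of all genes), with a median log2 fold change of 0.50. Among the highest were POTEF (2.55, adjusted p = 0.0229, edgeR), a relative of ANKRD26 and ANKRD36 with near-identical copies, PPP1R12A (2.01, 0.0132), the myosin phosphatase targeting subunit, and NFKB1 (1.55, 0.0155), a subunit of NF-kappa-B. The depleted genes were MTPN (-2.40), a protein made almost wholly of ankyrin repeats, CDKN2D (-1.17), an inhibitor of cyclin-dependent kinases, and ASB8 (-1.09), which encode short proteins. The median of the ANKRD genes, 0.57, is set beside the 0.50 of these genes without a test. Above 1815 coding bases, 25.7% of protein-coding genes were enriched and 0.57% depleted, against 4.05% and 12.6% of the others. The part of coding length in the calls of the other ankyrin repeat genes was not tested.

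The calls of ANKRD18A, ANKRD36C, ANKRD11 and ANKRD26 were made in the reported fit and in all 12 other settings examined, which changed the scaling, the filter, the tool or the libraries used. Those 4 were the members called enriched when libraries were scaled by their totals alone (2.59% of all genes), and ANKRD42 and ANKRD46 were then called depleted (22.2% of all genes). ANKRD17 and ANKRD36 lost their calls under that scaling only. It moved the median of all genes to -0.59 and that of the ANKRD genes to -0.03. This scaling shifts all genes alike.

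**Figure D4:**
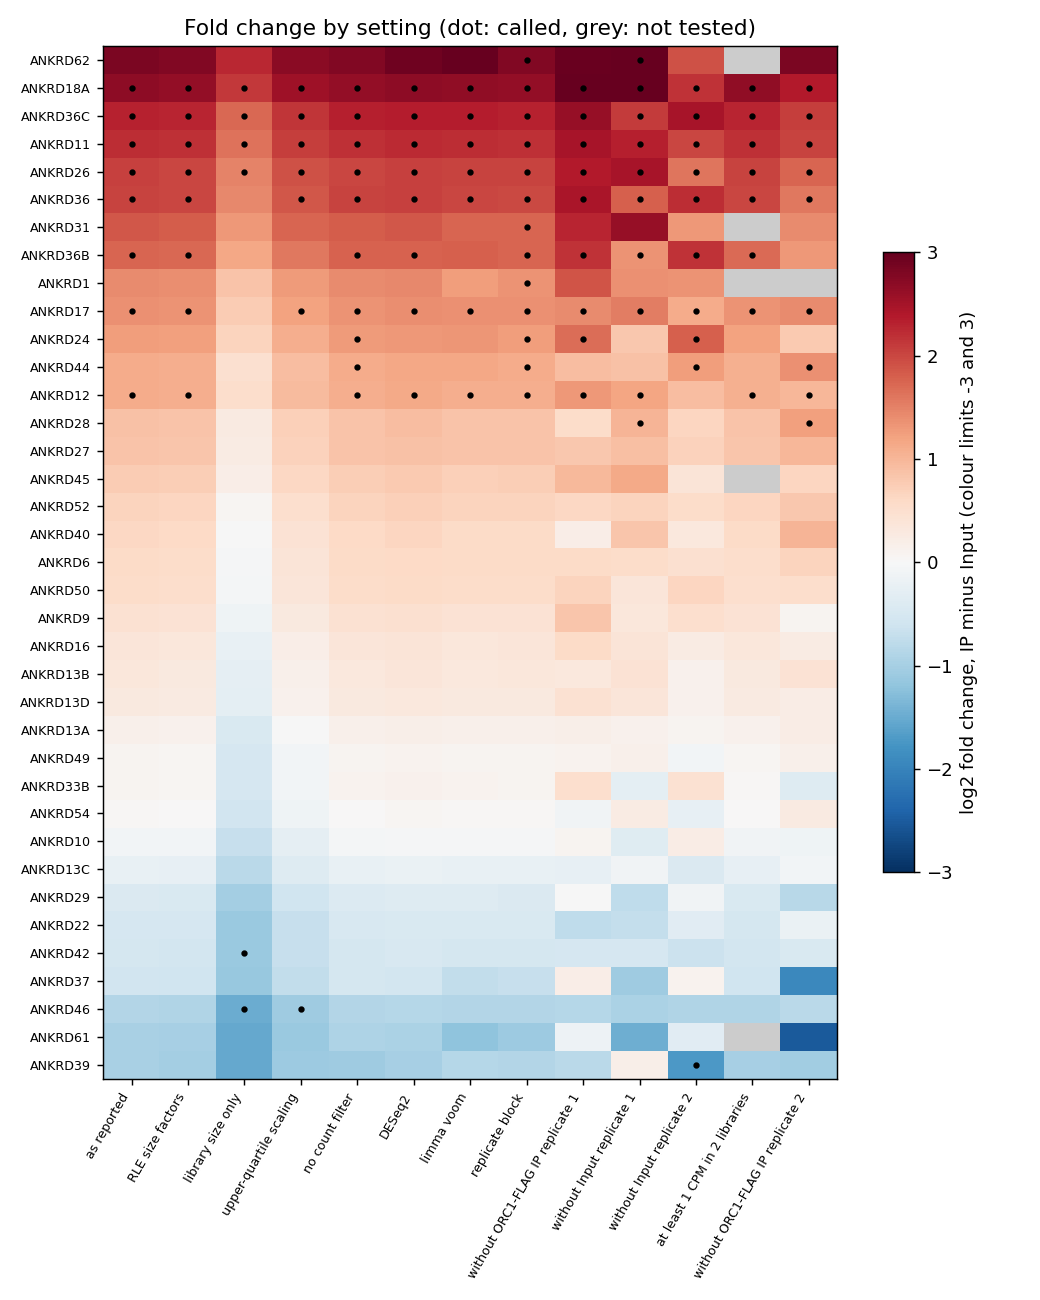
EdgeR, DESeq2 or limma log2 fold change (colour, limits -3 and 3) of the 37 tested ANKRD genes in rows under the reported fit and 12 other settings in columns, with a dot where the gene was called and grey where it was not tested. The dots run unbroken for ANKRD18A, ANKRD36C, ANKRD11 and ANKRD26, and the column scaled by library size alone is shifted towards blue.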

How the data were processed

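Nuclear RNA of ORC1-FLAG IP and Input libraries (2 each) was measured by native RIP-seq of ribosomal-RNA-depleted libraries. The authors trimmed reads with Trimmomatic, aligned them with STAR and deposited raw counts per gene from featureCounts against an Ensembl annotation of hg19 (GRCh37), with no normalization. The annotation release, the strand setting and the handling of reads with several alignments are not given in the sources used here. Reads carry no molecular identifiers, so duplicates count as reads. All 37 mitochondrial genes were at 0.

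The quasi-likelihood test of edgeR 4.0.16, run in R 4.3.3, was applied to the counts with TMM scaling (factors 0.758 and 0.868 for IP, 1.19 and 1.28 for Input), filterByExpr (cutoff 0.572 CPM) and group as the only term, on 14645 genes. The biological coefficient of variation was 0.261. A gene was called where its p, adjusted by Benjamini-Hochberg, was below 0.05 and its log2 fold change lay outside -1 to 1. The study describes duplicate experiments, and whether these were separate cultures is not given in the labels, so p-values measure the spread between these samples, which may be in part technical. Replicate ratios used a pseudocount of 0.5 scaled CPM. The labels tie IP and Input of a number to 1 RIP replicate, and deviations from the group means went together in libraries of 1 number (Pearson r = 0.647 across genes). The numbers were therefore taken as pairs for the ratios, but the reported fit leaves the pairing out. Its calls and SE are those of unpaired groups, and the replicate block was 1 of the alternatives. The edgeR test reports no SE. The SE given with its values is the absolute log2 fold change divided by the square root of the F statistic. Others were RLE size factors, library size only, upper-quartile scaling, no count filter, a filter of 1 CPM in 2 libraries, limma voom (limma 3.58.1), DESeq2 1.42.0 and leaving out each library, where the lone library of a group is assumed to vary like the other group. A filter of at least 1 scaled CPM in every library was added after seeing the data.

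Lengths, coordinates and sequences came from GENCODE release 44 on GRCh38, a later build than that of the counts, joined by Ensembl identifier (11496 of 63677 identifiers had no match). The coding length, transcript length, GC content and motif are those of the canonical transcript, the exonic length is the union of exons, and shared words were 31 bases long. The members, the gene lists, the tests and the named genes were chosen with earlier results of these data known. Named in full were ANKRD18A, the 5 highest and 5 lowest fold changes and each gene called, and of the other lists the called genes, up to 5 in each direction for the other ankyrin repeat genes, of which some are not reported here.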

Additional observations from a re-analysis of the deposited data

How the results depend on the processing

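With a replicate block, 13 ANKRD genes were enriched in place of 8 (all 8 among them), 1957 of all genes were depleted in place of 1215, and 5 other ankyrin repeat genes were depleted in place of 3. TEAD1 and ANKRD10-IT1 were also depleted with it, and no other call that the text names changed. Scaling by library size alone gave 380 enriched and 3257 depleted genes in all (1542 and 1215 as reported), 4 enriched and 2 depleted ANKRD genes (ANKRD42 and ANKRD46), 2 enriched and 10 depleted other ankyrin repeat genes, 0 enriched partner genes in place of 4 and an ANKRD median of -0.034. Upper-quartile scaling gave 1 depleted ANKRD gene (ANKRD46), 5 depleted other ankyrin repeat genes and a median of 0.40, RLE factors 5 and DESeq2 1 depleted other ankyrin repeat gene, and the filter of 1 CPM in 2 libraries a median of 0.47. These scalings shift all genes together.

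Leaving out each library in turn gave 9 to 10 enriched and 0 to 1 depleted ANKRD genes, a median of 0.48 to 0.59, 1 to 6 depleted other ankyrin repeat genes and 3 to 8 depleted partner genes. Without Input replicate 2, ANKRD39 was depleted, ANKRD12 lost its call and 6 other ankyrin repeat genes were depleted; without Input replicate 1 there were 5, without IP replicate 1 there was 1, and without IP replicate 2 there were 3 depleted partner genes in place of 6. ANKRD28 was enriched without Input replicate 1 and without IP replicate 2, ANKRD44 with no count filter and when either library of replicate 2 was left out, ANKRD24 without IP replicate 1, without Input replicate 2 and without a count filter, and ANKRD62 without Input replicate 1 (7.04, with its Input at 0, and 2.82 as reported). ANKRD36B was not called with library size alone, upper-quartile scaling or limma voom, nor ANKRD12 with the first 2 of these. The cause of these changes was not tested.

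Spearman's rho with coding length was 0.76 as reported, 0.51 with exonic length, 0.83 with the replicate 1 ratio, 0.63 without a count filter (45 genes) and 0.84 with at least 1 scaled CPM in every library. The median Input level per kilobase was 1.75 with the longest transcript in place of 1.21. With 2 libraries a group, genes with low counts, such as ANKRD1, ANKRD31, ANKRD61 and ANKRD62, have standard errors of 0.68 to 1.01 on the log2 scale.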

Other observations

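Genes named after ANKRD genes that are no members of the family (pseudogenes, antisense and divergent transcripts, and symbols with more letters) numbered 55 in the table, of which 29 were at 0 in every library and 7 were tested. ANKRD18EP, a processed pseudogene of the ANKRD18 group, had 13 and 6 counts in the IP and 50 and 32 in the Input, and it was depleted (log2 fold change -2.51 ± 0.58, adjusted p = 0.0252, edgeR), lower in both replicates, while ANKRD18A was enriched. ANKRD10-IT1, an intronic transcript of ANKRD10, had 24 and 36 counts in the IP and 40 and 92 in the Input (-1.65 ± 0.66, adjusted p = 0.110), and ANKRD19P, a transcribed pseudogene, had 114 and 120 against 49 and 50 (0.80 ± 0.36, adjusted p = 0.146); neither passed the test in edgeR. With the replicate block ANKRD10-IT1 was depleted (-1.54, adjusted p = 0.00064, edgeR).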
